A study of Mus musculus with 12 samples.

Results

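Macrophages display surface proteins that tell a T cell to respond or to stop. 10 mouse genes for such costimulatory and checkpoint ligands were read out here: *Cd274* (PD-L1), *Pdcd1lg2* (PD-L2), *Cd80*, *Cd86*, *Cd40*, *Icosl*, *Cd276* (B7-H3), *Vsir* (VISTA), *Havcr2* (TIM-3) and *Lgals9* (galectin-9). They were chosen by name, with earlier results of these data known, and make up 10 of the 48526 genes in the count table. The cells were bone marrow-derived macrophages (BMDMs), grown from whole marrow of C57Bl/6J female mice aged 6 to 20 weeks. All dishes were kept in mCSF (10 ng/mL), the growth factor that turns marrow cells into macrophages, and were used on day 7. The marrow of each of 3 mice gave 4 samples, 12 in all: untreated, 100 ng/mL Wnt3a, 100 pg/mL IL-4, or both agents together, each for 16 hr. Wnt3a is a secreted Wnt protein, IL-4 is a cytokine of type 2 immunity, and the study asked whether Wnt signaling changes how macrophages respond to IL-4. The labels name no deleted or introduced gene in any group. The cells were cultured alone, so the readout is the RNA of the ligands and not their effect on T cells.

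A T cell that recognizes antigen needs a further signal from the presenting cell. CD80 and CD86 provide it through CD28, and both also bind the brake CTLA-4. PD-L1 and PD-L2 bind PD-1 on T cells and restrain them, and PD-L2 has long been used as a marker of IL-4-treated mouse macrophages. CD40 works the other way round: it receives CD40 ligand from helper T cells and signals into the macrophage through TRAF proteins.

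In each mouse, the counts deposited as Wnt3a and as Wnt3a+IL-4 obeyed bounds that separate libraries would not: 0 of 48526 genes fell outside them for columns of the same mouse, against 6681 to 8625 for columns of different mice. The columns therefore share reads. Solving them per mouse gives the difference (what the Wnt3a column holds beyond that of Wnt3a+IL-4) and the remainder (2 times the Wnt3a+IL-4 column less that of Wnt3a). Both parts came from Wnt3a-treated cells, and the labels do not settle which of them also had IL-4. Total counts were 13342492 to 17113982 in the untreated and IL-4 libraries, 14171994 to 17453377 in the difference and 15707213 to 16998867 in the remainder. Values below are CPM, a gene's counts relative to the total of its library, scaled between libraries by TMM for the tests, and n = 3 mice per group throughout. The 8 macrophage markers were all tested and summed to 43860 to 67710 CPM, of which *Lyz2* made up 34001 to 57327 CPM. Within that list *Itgam* and *Fcgr1* were higher than in untreated cells in both Wnt3a-treated parts, and *Adgre1* in the difference. *Fcgr1* was lower in the remainder than in the difference. Of the exon bases of *Itgam*, 68.7% lie in Gm49368 on the same strand. *Mrc1* was higher with IL-4 and in the remainder and lower in the difference (22.5 to 35.0 CPM, against 36.4 to 66.8 CPM in untreated cells).

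Members moved in both directions, 3 of 10 with IL-4 alone and 8 of 10 in the remainder, and *Havcr2* passed no test. Against untreated cells, IL-4 changed 3 members by edgeR's quasi-likelihood test at a Benjamini-Hochberg adjusted p under 0.05, with *Cd274* and *Pdcd1lg2* higher and *Icosl* lower, when 3.4% of all 12421 tested genes changed. In the difference, *Cd274*, *Cd86* and *Lgals9* rose and *Icosl* fell, 4 members against 23.2% of all genes. In the remainder 8 members changed against 25.3% of all genes. *Cd274*, *Pdcd1lg2*, *Cd86*, *Cd40* and *Lgals9* rose there, and *Icosl*, *Cd276* and *Vsir* fell. The remainder differed from the difference in 4 members, with *Cd274*, *Pdcd1lg2* and *Cd40* higher and *Icosl* lower, against 5.25% of all genes. All 10 members passed the filter on low counts, *Pdcd1lg2* only through the IL-4 and remainder libraries, where it is high. The median log2 fold change of the members was 0.05 with IL-4, 0.07 in the difference and 0.52 in the remainder. Over all tested genes it was -0.00302, -0.0115 and -0.0235. The 3 comparisons with untreated cells use the same untreated libraries and are not independent of one another. In bulk RNA, fewer cells that express a gene and less of its RNA per cell cannot be told apart. Scaling by total counts alone shifted the balance of all changed genes: the share that rose went from 68% to 53.8% with IL-4, from 50.7% to 33.6% in the difference and from 53.8% to 35.6% in the remainder.

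**Figure D1:**
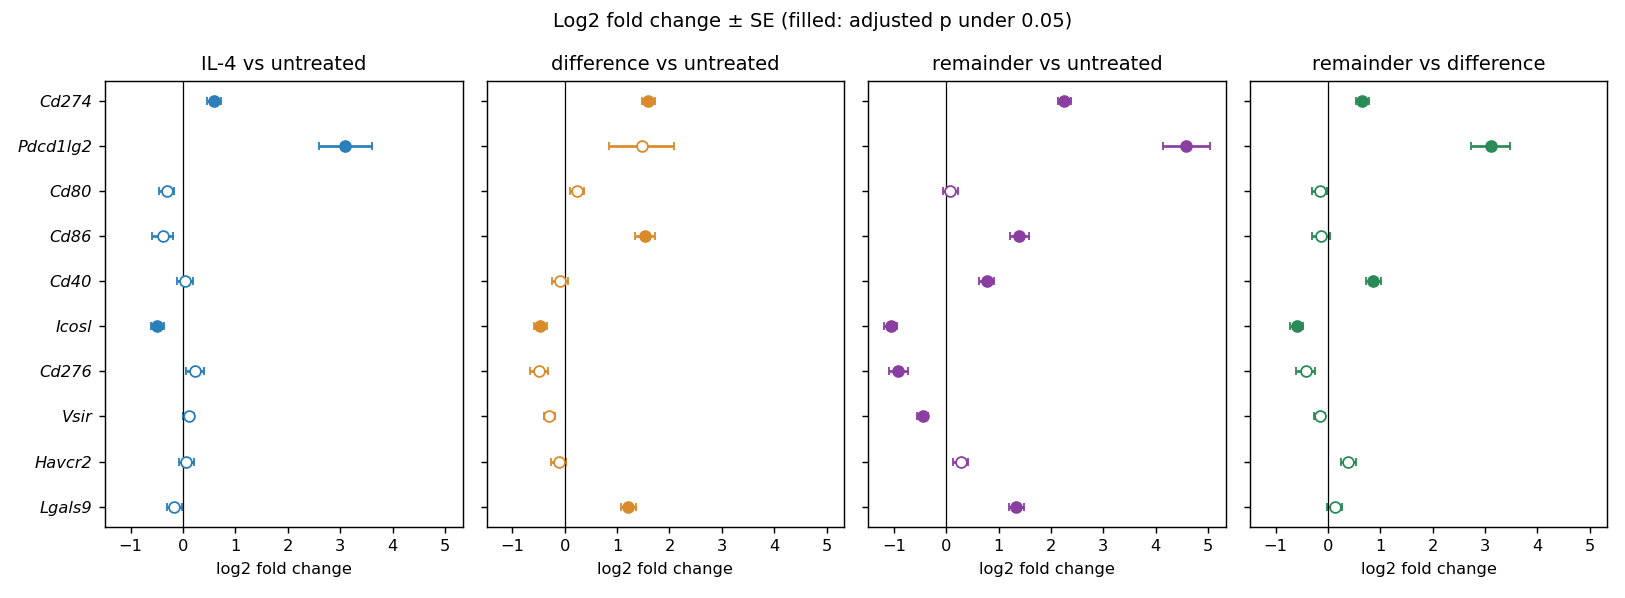
Log2 fold change (x axis) of each of the 10 members (y axis), one panel per comparison, with bars of 1 SE and filled points where the adjusted p was under 0.05. *Pdcd1lg2* has the widest bars and the largest changes, 3.10 with IL-4 and 4.58 in the remainder, while *Icosl* lies left of 0 in all 4 panels.

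The PD-1 ligand genes lie side by side on chromosome 19, with 22823 bases and 0 protein-coding genes between them. *Cd274* spans chr19:29367455-29388095 and *Pdcd1lg2* chr19:29410919-29471161, both on the plus strand (mm10). The 250 bases before each RefSeq start (GRCm38.p6, the same build as mm10) are shown because the neighbours responded differently. The windows lie at chr19:29367188-29367437 and chr19:29410669-29410918 on the plus strand. Capitals mark a match to the spacing preferred by STAT6 (TTC and GAA with any 4 bases between), the factor that IL-4 activates, at 82 to 73 bases before the start.
Cd274: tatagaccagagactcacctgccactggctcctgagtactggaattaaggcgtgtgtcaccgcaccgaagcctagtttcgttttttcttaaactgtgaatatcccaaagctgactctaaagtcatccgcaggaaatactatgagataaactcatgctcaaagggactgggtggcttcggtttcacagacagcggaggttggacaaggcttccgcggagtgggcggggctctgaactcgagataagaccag
Pdcd1lg2: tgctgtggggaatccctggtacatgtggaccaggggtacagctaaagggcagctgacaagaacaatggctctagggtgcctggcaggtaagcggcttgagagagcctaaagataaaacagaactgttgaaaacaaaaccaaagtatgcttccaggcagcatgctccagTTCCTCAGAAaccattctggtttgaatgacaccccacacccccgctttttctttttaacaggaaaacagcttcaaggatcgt
Among the 8 members with a RefSeq promoter (all but *Cd86* and *Cd40*), *Pdcd1lg2* was the only one with such a match, which 6.95% of all 32851 promoters have. None of the 8 held TTCNNNGAA, the shorter STAT spacing (8.3% of all promoters), or CTTTGAT, the letters of the TCF/LEF factors that act in Wnt signaling (3.73%). Both strands were searched in windows of 300 bases that reach 50 bases past the start. Matches for NF-kappaB (GGG and CC with any 5 bases between), which can coincide with other motifs, were in 5 of the 8 windows (*Pdcd1lg2*, *Cd80*, *Icosl*, *Cd276* and *Lgals9*) and in 50.8% of all promoters. A match is a description of letters, not of a bound site.

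*Cd274* was raised by IL-4 and raised further in both Wnt3a-treated parts. It stood at 31.4, 27.8 and 30.1 CPM in untreated cells of mouse 1, 2 and 3 and at 45.3, 43.4 and 46.0 CPM with IL-4. It reached 106, 85.2 and 78.4 CPM in the difference. In the remainder it was 137, 167 and 122 CPM. The 4 groups did not overlap anywhere and lay in the order untreated, IL-4, difference, remainder. Non-overlapping groups were also seen for 19.8% of all genes with IL-4, 39.2% in the difference, 35.6% in the remainder and 22.4% between remainder and difference. Against untreated cells the log2 fold change was 0.59 ± 0.13 (SE, adjusted p = 0.0181) with IL-4, 1.60 ± 0.13 (adjusted p = 6.48e-07) in the difference and 2.25 ± 0.13 (adjusted p = 2.51e-08) in the remainder. Remainder exceeded difference by 0.66 ± 0.12 (adjusted p = 0.00518). Of its exon bases, 14.1% overlap AC119228.1 on the other strand and 12.4% of its 50-base stretches recur there, and whether the counting used strand is not given in the sources used here. The IL-4 call was lost with total-count scaling (0.54, adjusted p = 0.0658), without mouse 2 (0.56, adjusted p = 0.0556) or mouse 3 (0.57, adjusted p = 0.218), without the untreated library of mouse 2 (adjusted p = 0.0648) or 3 (adjusted p = 0.0771), and without the IL-4 library of mouse 1 (adjusted p = 0.0641), 2 (adjusted p = 0.0593) or 3 (adjusted p = 0.0842). The call between remainder and difference was lost without mouse 3 (0.67, adjusted p = 0.0998).

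*Pdcd1lg2* was nearly silent in untreated macrophages and separated the groups in another order. Its raw counts were 5, 2 and 0 in untreated cells of mouse 1, 2 and 3, 27, 16 and 15 with IL-4, 7, 6 and 6 in the difference, and 51, 66 and 50 in the remainder. As levels these were 1.62, 1.02 and 1.08 CPM with IL-4, 0.40, 0.37 and 0.44 CPM in the difference, and 3.17, 4.06 and 3.29 CPM in the remainder. The groups did not overlap, with the difference just above the untreated libraries and below all IL-4 libraries. *Pdcd1lg2* passed the filter on low counts only through the IL-4 and remainder libraries, where it is high, so its tests are not independent of that filter. The calls with IL-4 and in the remainder were kept when all genes with at least 1 count were tested. Log2 fold changes were 3.10 ± 0.51 (SE, adjusted p = 0.00226) with IL-4 and 4.58 ± 0.45 (adjusted p = 3.27e-06) in the remainder. For the difference it was 1.47 ± 0.62 and did not pass the test (adjusted p = 0.0947). Remainder exceeded difference by 3.11 ± 0.37 (adjusted p = 0.000179), and it exceeded IL-4 alone by 1.48 (adjusted p = 0.00355). The IL-4 call was lost without mouse 3 (2.64, adjusted p = 0.0603), and the difference was called without the untreated library of mouse 1 (2.51, adjusted p = 0.0294).

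Because both ligand genes were counted in the same libraries, their ratio does not depend on scaling. *Pdcd1lg2* counts were 0.856%, 0.463% and 0% of *Cd274* counts in untreated cells and 0.377%, 0.430% and 0.557% in the difference. With IL-4 the share was 3.58%, 2.36% and 2.35%, and in the remainder 2.32%, 2.43% and 2.69%. Every IL-4 and remainder library was above every untreated and difference library.

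**Figure D2:**
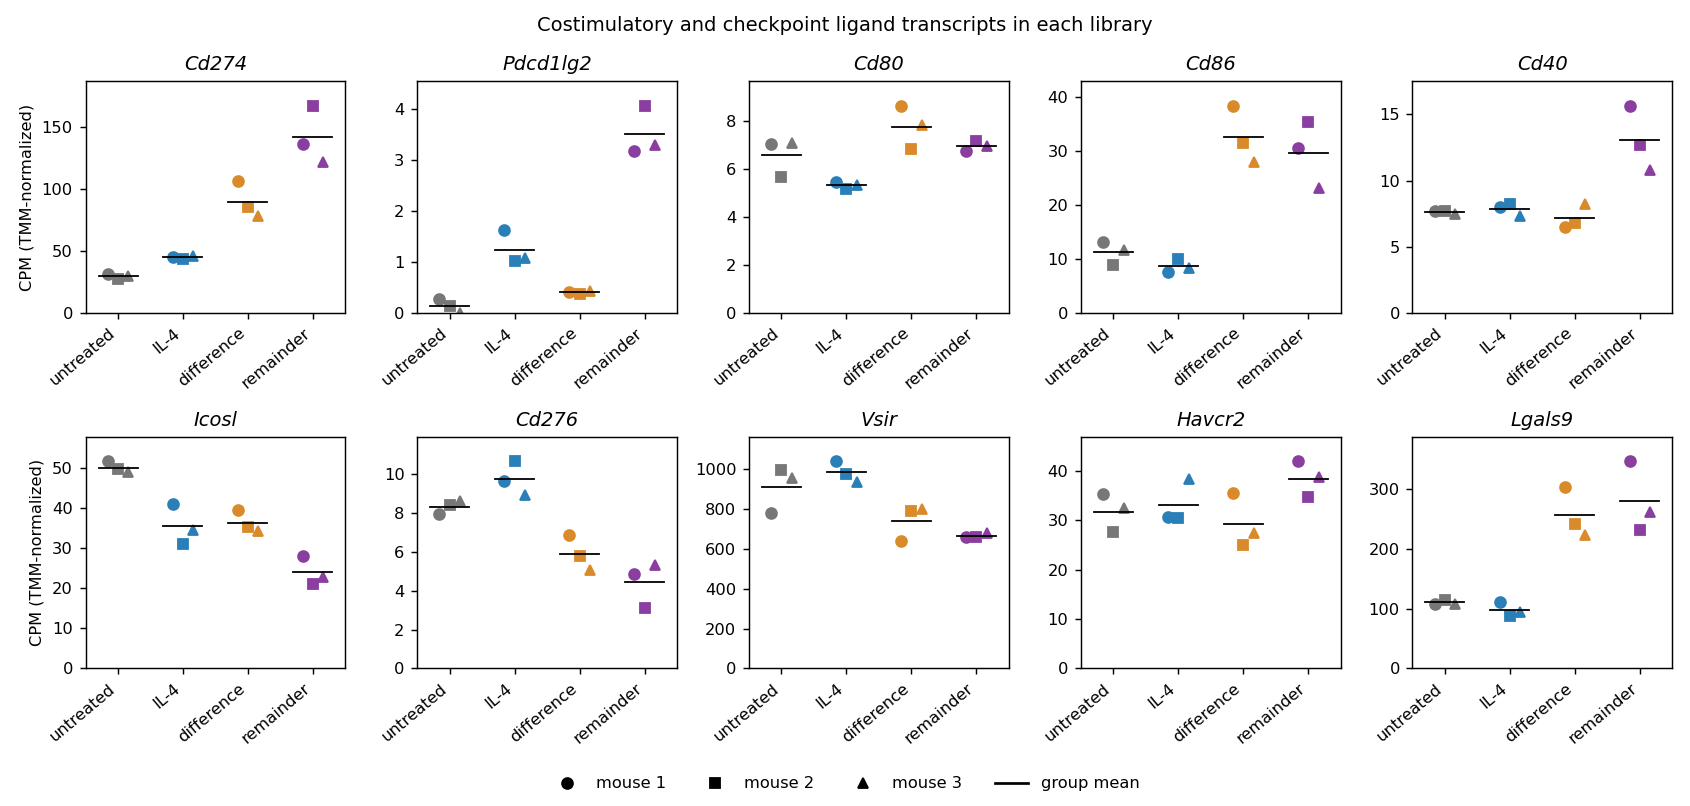
CPM of each member (one panel per gene, y axis on its own scale) in the 12 libraries, grouped as untreated, IL-4, difference and remainder, with one marker shape per mouse. *Cd274* climbs in 4 separate steps from 27.8 to 167 CPM, *Pdcd1lg2* is highest in the IL-4 and remainder groups, and *Icosl* falls from 51.6 CPM to 21.1 CPM.

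Of the CD28 ligands, *Cd86* rose in both Wnt3a-treated parts and *Cd80* did not. *Cd86* (chr16:36603869-36666081, minus strand) was at 13.2, 8.81 and 11.7 CPM in untreated cells and at 7.49, 10.0 and 8.30 CPM with IL-4. It stood at 38.3, 31.5 and 27.9 CPM in the difference. The remainder had 30.5, 35.3 and 23.2 CPM. All 6 libraries of the Wnt3a-treated parts were above all untreated and IL-4 libraries, and each of these pairs of groups overlapped within itself. As log2 fold changes these were 1.53 ± 0.18 (SE, adjusted p = 3.27e-05) in the difference and 1.40 (adjusted p = 6.31e-05) in the remainder. With IL-4 it was -0.39 (adjusted p = 0.398), and between remainder and difference -0.14 (adjusted p = 0.73).

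*Cd80* (chr16:38455561-38496335, plus strand) kept within 5.18 to 8.64 CPM in all 12 libraries. Its group means were 6.60 ± 0.81 (SD) in untreated cells, 5.32 ± 0.14 with IL-4, 7.78 ± 0.90 in the difference and 6.97 ± 0.21 CPM in the remainder. No comparison with untreated cells passed the test: -0.31 with IL-4 (adjusted p = 0.336), 0.24 in the difference (adjusted p = 0.243) and 0.08 in the remainder (adjusted p = 0.724, and -0.03 with total-count scaling). The difference exceeded IL-4 alone by 0.55 (adjusted p = 0.0123), a call lost without mouse 1 (0.47, adjusted p = 0.105) or mouse 3 (0.56, adjusted p = 0.159) and without the difference of mouse 1 (0.46, adjusted p = 0.0603). Counted within a library, there were 1.37 to 1.94 *Cd86* counts per *Cd80* count in the 6 untreated and IL-4 libraries. In the 6 libraries of the difference and remainder there were 3.33 to 4.92.

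**Figure D3:**
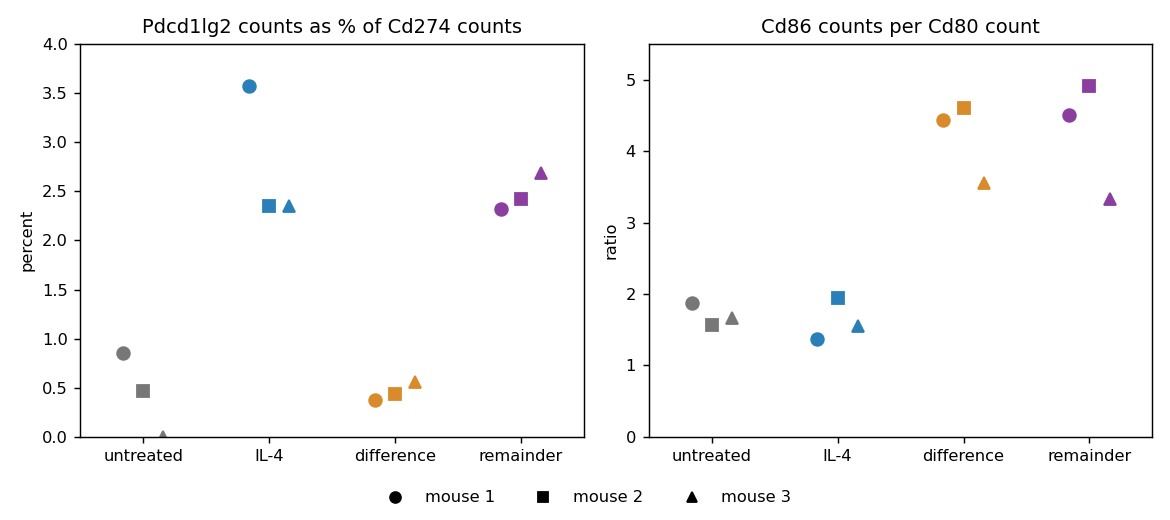
Ratios of raw counts within each library (y axis) by group (x axis), with one marker shape per mouse. The share of *Pdcd1lg2* relative to *Cd274*, in percent, is high in the IL-4 and remainder groups (2.32 to 3.58), and *Cd86* per *Cd80* is high in the difference and remainder groups (3.33 to 4.92).

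*Cd40* (chr2:165055627-165072948, plus strand) rose in the remainder alone of the 3 treated groups tested against untreated cells. It was at 7.74, 7.72 and 7.46 CPM in untreated cells and at 7.97, 8.24 and 7.36 CPM with IL-4. The difference had 6.52, 6.78 and 8.22 CPM. The remainder had 15.7, 12.7 and 10.8 CPM, above all other libraries, which overlapped with one another. In the remainder the log2 fold change was 0.77 (adjusted p = 0.00126). It was 0.04 with IL-4 (adjusted p = 0.943, and -0.02 with total-count scaling) and -0.10 in the difference (adjusted p = 0.695). The remainder exceeded the difference by 0.87 (adjusted p = 0.00309) and IL-4 alone by 0.73 (adjusted p = 0.00237). The former call was lost without mouse 1 (0.65, adjusted p = 0.0616).

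The TRAF and NF-kappaB genes through which CD40 signals, with the genes that handle PD-L1 and CD86 at the membrane, formed a list of 20, of which 19 were tested. 1 rose with IL-4 (3.4% of all genes changed), 5 rose and 1 fell in the difference (23.2% of all genes), and 5 rose and 2 fell in the remainder (25.3% of all genes). The list medians were -0.01, 0.12 and 0.15 on the log2 scale. *Traf1*, an adaptor of CD40 and related receptors, stood at 34.2 to 38.5 CPM in untreated cells, 91.4 to 101 CPM in the difference and 98.1 to 111 CPM in the remainder. Its log2 fold changes were 1.40 (adjusted p = 7.03e-08) and 1.48 (adjusted p = 2.89e-08). *Traf2*, *Birc3* and *Nfkb2* rose by smaller amounts in both parts, by 0.28 to 0.68. *Traf5*, another adaptor, rose by 0.55 with IL-4 (adjusted p = 0.00993) and by 0.67 in the remainder (adjusted p = 0.000331). In the difference it was at 0.15 (adjusted p = 0.351). *Marchf1*, a ubiquitin ligase that removes CD86 from the surface, rose by 0.64 in the difference (adjusted p = 0.017) and was lower in the remainder than in the difference by -0.83 (adjusted p = 0.0133). *Cmtm6*, which keeps PD-L1 at the surface, fell in both parts, by -0.27 (adjusted p = 0.0392) and -0.30 (adjusted p = 0.0209), and its relative *Cmtm4* fell in the remainder by -0.30 (adjusted p = 0.0345). Between remainder and difference 3 of the 19 differed, against 5.25% of all genes: *Traf5* was higher and *Marchf1* and *Tank* were lower.

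*Icosl*, whose product engages ICOS on T cells, fell in every comparison with untreated cells. The untreated libraries (chr10:78069302-78083913, plus strand) were at 51.6, 49.7 and 48.9 CPM. IL-4 gave 41.1, 31.1 and 34.4 CPM and the difference 39.4, 35.2 and 34.2 CPM. The remainder was lowest at 28.1, 21.1 and 22.9 CPM. The IL-4 and difference libraries overlapped, and both lay between the untreated and the remainder libraries. The log2 fold change was -0.49 ± 0.12 (SE, adjusted p = 0.0379) with IL-4, -0.46 (adjusted p = 0.0124) in the difference and -1.06 (adjusted p = 1.93e-05) in the remainder. The remainder was below the difference by -0.60 (adjusted p = 0.0115) and below IL-4 alone by -0.57 (adjusted p = 0.00448).

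Of these calls of *Icosl*, the fall in the remainder against untreated cells held when each mouse and each library was left out. The IL-4 call was lost in 10 of 15 such fits: without mouse 2 (-0.42, adjusted p = 0.163) or 3 (-0.50, adjusted p = 0.431), without the untreated library of mouse 1, 2 or 3 (adjusted p = 0.114, 0.064 and 0.0958), without the IL-4 library of mouse 2 or 3 (adjusted p = 0.18 and 0.117), without the difference of mouse 2 or 3 (adjusted p = 0.0596 and 0.0533) and without the remainder of mouse 3 (adjusted p = 0.0545). The call in the difference was lost without mouse 3 (-0.44, adjusted p = 0.178) and without the difference of mouse 3 (-0.42, adjusted p = 0.0524). Remainder against difference was lost without mouse 3 (-0.60, adjusted p = 0.286), the difference of mouse 1 (-0.53, adjusted p = 0.0556) and the remainder of mouse 3 (-0.56, adjusted p = 0.0597). Remainder against IL-4 was lost without mouse 3 (-0.53, adjusted p = 0.134).

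*Cd276* and *Vsir*, both of which encode proteins of the B7 family that can restrain T cells, fell in the remainder. *Cd276* (chr9:58524298-58555437, minus strand) was at 7.95, 8.43 and 8.66 CPM in untreated cells and at 9.65, 10.7 and 8.95 CPM with IL-4. It was at 6.87, 5.80 and 5.09 CPM in the difference and at 4.84, 3.13 and 5.32 CPM in the remainder. The Wnt3a-treated parts overlapped with one another, and both were below all untreated and IL-4 libraries. The log2 fold change was -0.91 (adjusted p = 0.00195) in the remainder. It was 0.23 with IL-4 (adjusted p = 0.627) and -0.49 in the difference (adjusted p = 0.0629). The difference passed the test with total-count scaling (-0.58, adjusted p = 0.0285), without the difference of mouse 1 (-0.62, adjusted p = 0.0489) and without the remainder of mouse 2 (-0.49, adjusted p = 0.0198). The gene shares 11.4% of its exon bases with Gm10657 on the other strand, which had 0 to 2 counts in any library.

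*Vsir* was the most abundant member. Its untreated libraries (chr10:60346851-60372684, plus strand) had 781, 996 and 957 CPM and its IL-4 libraries 1040, 979 and 935 CPM. The difference had 639, 789 and 800 CPM, which overlapped the untreated range. The remainder, at 662, 659 and 680 CPM, was below every untreated and IL-4 library. The log2 fold change was -0.45 (adjusted p = 0.00568) in the remainder, -0.30 in the difference (adjusted p = 0.0569) and 0.11 with IL-4 (adjusted p = 0.711, and -0.02 without mouse 1). The call in the remainder was lost without mouse 2 (-0.36, adjusted p = 0.0611) or mouse 3 (-0.42, adjusted p = 0.12). The difference passed the test in DESeq2 (adjusted p = 0.0378), with total-count scaling (adjusted p = 0.00435), with all genes of at least 1 count (adjusted p = 0.0328) or at least 1 CPM in 3 libraries (adjusted p = 0.0488), and without mouse 1 (adjusted p = 0.0212), the untreated library of mouse 1 (adjusted p = 0.0129) or the remainder of mouse 2 (adjusted p = 0.0395).

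TIM-3 and galectin-9 are a receptor and a ligand it is known to bind, and their genes behaved differently. *Havcr2* (chr11:46454935-46481255, plus strand) was at 27.6 to 35.2 CPM in untreated cells, 30.4 to 38.2 CPM with IL-4, 24.9 to 35.5 CPM in the difference and 34.6 to 41.9 CPM in the remainder. The 4 groups overlapped. No comparison passed the test, and the log2 fold change was 0.27 in the remainder and 0.39 between remainder and difference (adjusted p = 0.15, and 0.0313 when all genes with at least 1 count were tested).

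*Lgals9* (chr11:78962974-78984946, minus strand) rose strongly in both Wnt3a-treated parts. It stood at 109, 115 and 109 CPM in untreated cells and at 111, 88.7 and 95.0 CPM with IL-4. The difference had 304, 242 and 224 CPM. The remainder had 347, 231 and 263 CPM. All 6 libraries of the Wnt3a-treated parts exceeded all untreated and IL-4 libraries, and within each pair the groups overlapped. The log2 fold change was 1.21 (adjusted p = 3.01e-05) in the difference and 1.34 (adjusted p = 1.01e-05) in the remainder, against -0.17 (adjusted p = 0.666) with IL-4. Remainder and difference differed by 0.13 (adjusted p = 0.682). The 250 bases before its RefSeq start (chr11:78984925-78985174, minus strand, GRCm38.p6) are shown because it was the only one of the 8 promoters with a match for the interferon regulatory factors (GAAA and GAAA with any 2 bases between), which 3.44% of all promoters have. Capitals mark the match, read on the reverse strand, at 55 to 46 bases before the start, and another match lies past the printed end, at 15 to 24 bases after it.
Lgals9: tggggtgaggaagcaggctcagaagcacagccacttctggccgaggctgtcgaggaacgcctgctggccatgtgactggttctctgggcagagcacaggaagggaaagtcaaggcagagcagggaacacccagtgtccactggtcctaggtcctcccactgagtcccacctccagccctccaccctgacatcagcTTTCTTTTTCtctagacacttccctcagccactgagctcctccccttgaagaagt

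Per kilobase of exon, which allows genes to be compared, the untreated macrophages held the ligands at very unequal levels. *Vsir* averaged 182 CPM per kb and *Lgals9* 51.9. *Havcr2* (11.7), *Icosl* (10.8) and *Cd274* (8.22) followed. *Cd86* (3.07), *Cd276* (2.28), *Cd40* (2.24) and *Cd80* (1.78) were lower, and *Pdcd1lg2* averaged 0.068. In the remainder *Cd274* reached 39.2 CPM per kb and *Lgals9* 131, next to 133 for *Vsir*. *Icosl* dropped to 5.20 there, below *Cd86* at 8.11, while *Pdcd1lg2* reached 1.79, beside *Cd80* at 1.88 and above *Cd276* at 1.21. The summed CPM of the 10 members stayed within 1044 to 1301 in all 12 libraries. *Vsir* alone made up 639 to 1040 CPM of it, so the sum says little about the other members.

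**Figure D4:**
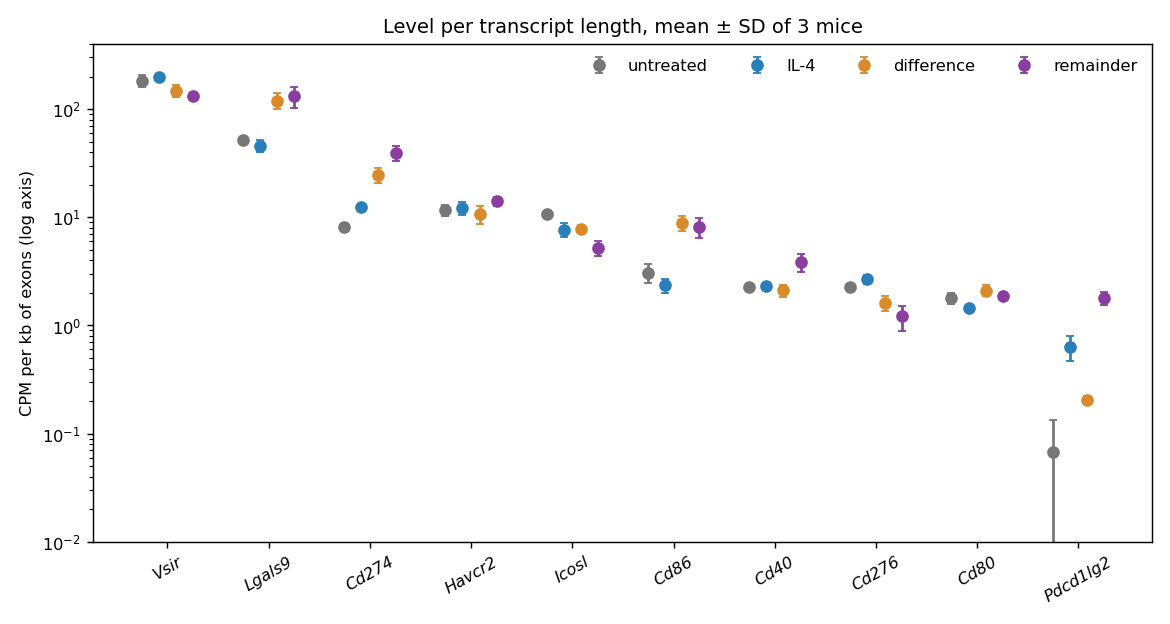
Mean CPM per kb of exon (y axis, log scale) of each member in the 4 groups, with bars of 1 SD over 3 mice. *Vsir* is on top in every group (133 to 196), *Cd274* moves from 8.22 to 39.2, and the lower bar of *Pdcd1lg2* in untreated cells, where 1 library had 0 counts, runs off the axis.

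Against IL-4 alone, 7 members differed in the difference and 8 in the remainder, when 20.3% of all genes did in each comparison. *Cd274* was higher by 1.00 (adjusted p = 3.63e-05) and 1.66 (adjusted p = 4.4e-07), *Cd86* by 1.92 (adjusted p = 4.44e-06) and 1.79 (adjusted p = 1.13e-05), and *Lgals9* by 1.38 (adjusted p = 7.93e-06) and 1.51 (adjusted p = 4.59e-06). *Pdcd1lg2* was lower in the difference than with IL-4, by -1.63 (adjusted p = 0.0112), a call lost without mouse 1 (-1.39, adjusted p = 0.0719), mouse 2 (-1.68, adjusted p = 0.0602) or the IL-4 library of mouse 1 (-1.38, adjusted p = 0.0541). It passed the filter on low counts only through the IL-4 and remainder libraries, so its tests against IL-4 are not independent of that filter. *Cd276* was lower by -0.72 (adjusted p = 0.00942) and -1.14 (adjusted p = 0.000412), and *Vsir* by -0.41 (adjusted p = 0.0119) and -0.56 (adjusted p = 0.00146). In the difference, *Cd276* was lost without mouse 2 (-0.62, adjusted p = 0.0511), mouse 3 (-0.66, adjusted p = 0.125) or the IL-4 library of mouse 2 (-0.64, adjusted p = 0.0545), and *Vsir* without mouse 3 (-0.48, adjusted p = 0.0856). Groups of these pairs did not overlap for 38.6% and 35.9% of all genes.

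The question whether IL-4 acts differently with Wnt3a has an answer for each assignment of the parts. With the remainder taken as Wnt3a+IL-4, 0 of 10 members passed the test of the interaction (edgeR, 2 at an unadjusted p under 0.05, and 0 in DESeq2), against 0.105% of all genes, a share that rests on 13 genes in edgeR where DESeq2 called 165. *Cd274* had an interaction of 0.07, *Pdcd1lg2* of 0.01 and *Icosl* of -0.10. *Cd40* had 0.83 (adjusted p = 0.146), and 0.0329 when all genes with at least 1 count were tested. With the difference taken as Wnt3a+IL-4, 4 members passed, against 7.33% of all genes: *Cd274* at -1.25 (adjusted p = 0.000352), *Pdcd1lg2* at -6.21 (adjusted p = 1.63e-05), *Cd40* at -0.91 (adjusted p = 0.0156) and *Icosl* at 1.09 (adjusted p = 0.000997). The *Cd40* call was lost without mouse 1 (-0.70, adjusted p = 0.121), 2 (-0.87, adjusted p = 0.0769) or 3 (-1.15, adjusted p = 0.0636), and the *Icosl* call without mouse 3 (1.10, adjusted p = 0.0822). Of the 4, *Pdcd1lg2* passed the filter on low counts only through the IL-4 and remainder libraries, where it is high. Its test is not independent of that filter. Neither assignment was chosen.

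Taken as labelled, the deposited Wnt3a columns gave 7 changed members against untreated cells (4 higher, 3 lower) and the Wnt3a+IL-4 columns 8 (5 higher, 3 lower). That fit tested 13368 genes. The highest counts of changed genes over all alternatives, this fit among them, were 4063 and 3915 in these comparisons. They bound the count in this fit from above and are not its own share, since the alternatives tested different numbers of genes. Between these columns, 0 of 10 members passed edgeR's test and 0 had an unadjusted p under 0.05. Of all 13368 genes 0 passed there, so the 0 is not particular to the members. *Pdcd1lg2* was higher by 3.32 in the Wnt3a columns (adjusted p = 0.000104) and by 3.75 in the Wnt3a+IL-4 columns (adjusted p = 3.2e-05), where the parts gave 1.47 and 4.58. *Cd40* gave 0.24 (adjusted p = 0.0664) and 0.38 (adjusted p = 0.00739), where the parts gave -0.10 and 0.77.

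Other ligands that antigen-presenting cells can carry were followed as a list of 36 genes, of which 26 were tested. 1 rose with IL-4, *Cd84* of the SLAM family by 0.49 (adjusted p = 0.0123), when 3.4% of all genes changed. In the difference 10 rose and 2 fell, when 23.2% of all genes changed, and in the remainder 10 rose and 5 fell, when 25.3% did. The list medians were -0.07, 0.16 and 0.22. *Slamf6*, of the SLAM family, had 1 to 16 counts in untreated cells, 52 to 116 in the difference and 49 to 80 in the remainder. *Tnfsf4*, the OX40 ligand, went from 5 to 11 counts in untreated cells to 14 to 35 and 19 to 30 counts. Both are among the genes that rose in each part, but passed the filter on low counts only through these parts. Their log2 fold changes, 3.46 and 3.24 for *Slamf6* and 1.76 and 1.67 for *Tnfsf4*, are a description. *Nectin2*, a ligand of DNAM-1 and TIGIT, rose by 0.90 and 0.84, and *Pvr*, which binds the same receptors, by 0.45 and 0.83. *Cd1d1*, which presents lipid antigens, rose by 1.13 and 0.72. *Tnfrsf14*, *Icam1*, *Clec2d* and *Sema4a* also rose in both parts, and *Icam2* in the remainder.

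Among the ligands that fell, *Alcam*, which binds CD6 on T cells, went from 245 to 294 CPM in untreated cells to 171 to 207 CPM in the difference and 153 to 180 CPM in the remainder, or by -0.55 (adjusted p = 0.000689) and -0.69 (adjusted p = 8.46e-05). *Cd48*, a ligand of CD2 and 2B4, was at 229 to 292 CPM in untreated cells and at 125 to 185 CPM in the remainder (-0.80, adjusted p = 0.000373). *Cd200* fell in the difference (-0.68, adjusted p = 0.0262). In the remainder *Tnfsf9* (-0.99), *Nectin1* (-0.58) and *Cd24a* (-0.57) fell.

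Between the Wnt3a-treated parts, 3 of the 26 ligands differed, against 5.25% of all genes. *Tnfsf15*, the ligand of death receptor 3, had 36 to 73 counts in the difference and 11 to 28 in the remainder (-1.74, adjusted p = 0.0253). *Tnfsf9*, the 4-1BB ligand, had 5.43 to 8.53 CPM in the difference and 3.26 to 3.91 CPM in the remainder (-0.96, adjusted p = 0.00634). *Lgals3*, for galectin-3, was higher in the remainder by 0.49 (adjusted p = 0.0382).

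**Figure D5:**
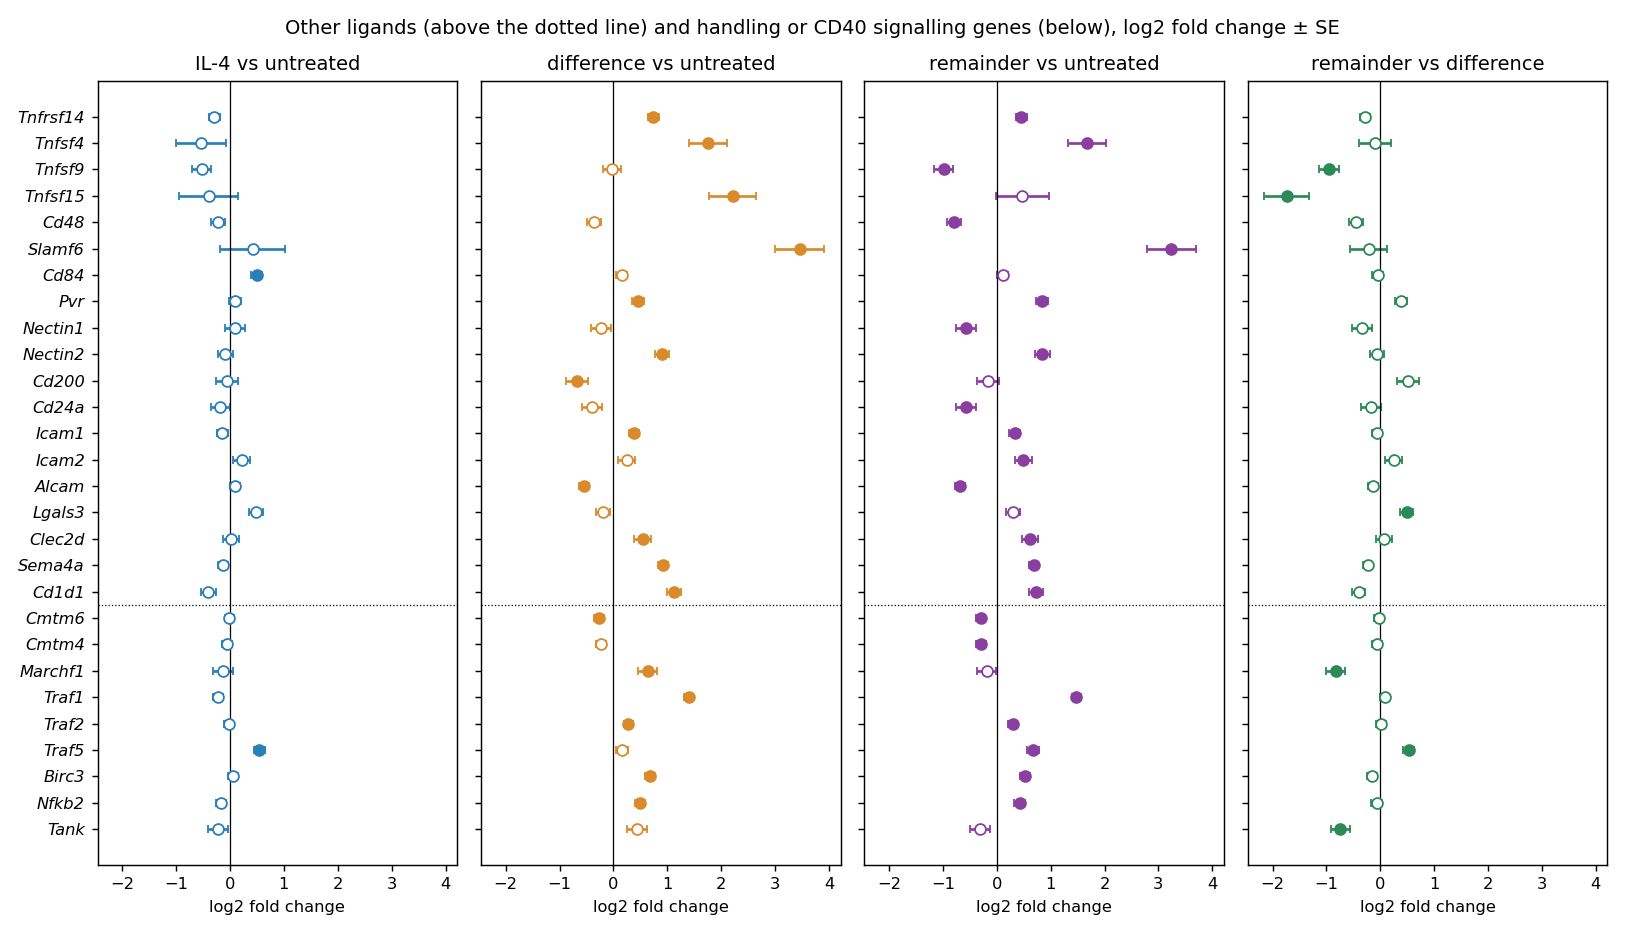
Log2 fold change (x axis, bars of 1 SE) of 19 other ligand genes and 9 handling or CD40 signalling genes that passed the test in at least 1 of 4 comparisons, with filled points where the adjusted p was under 0.05. IL-4 has 2 filled points (*Cd84* and *Traf5*), while *Slamf6* lies farthest right in the difference and the remainder (3.46 and 3.24). *Slamf6* passed the filter on low counts only through these parts.

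Across the 12 libraries, the log2 levels of several members ran together, which is given as a description because the libraries share groups and mice. Pearson's r was 0.93 between *Cd86* and *Lgals9*, 0.89 between *Cd274* and *Lgals9* and 0.82 between *Cd80* and *Cd86*. It was 0.71 between the neighbours *Cd274* and *Pdcd1lg2*, and 0.74 between *Pdcd1lg2* and *Cd40*. *Vsir* ran opposite to *Cd86* (-0.91) and to *Lgals9* (-0.88), and *Icosl* opposite to *Pdcd1lg2* (-0.86).

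Among the 8501 to 8502 candidate genes that averaged 8 CPM or more, those most like a member over the 12 libraries were named by their r. *Lgals9* was closest to *Usp18* (0.995), *Parp3* (0.993) and *Adar* (0.989), and *Cd86* to *Ms4a6b* (0.989), *Ms4a4c* (0.989) and *Fgl2* (0.987). *Cd274* was closest to *N4bp1* (0.988), *Il18bp* (0.987) and *Cst7* (0.986). *Pdcd1lg2* was closest to *Ppp1r21* (0.978), *Oit3* (0.964) and *Slc7a2* (0.963). For *Vsir* these were *Rab31* (0.975), *Gna12* (0.972) and *Plcg1* (0.969), and for *Cd276* *Arhgef7* (0.961), *Ubash3b* (0.956) and *Qpct* (0.945). For *Icosl* they were *Znrf1* (0.934), *Il17ra* (0.933) and *Arrb2* (0.933). *Cd40* (*Tcta* 0.941, *Syngr2* 0.921 and *Chchd1* 0.902) and *Cd80* (*Milr1* 0.927, *Trim12a* 0.925 and *Dst* 0.914) had looser matches.

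Markers of other cell types that could be present in marrow cultures are set beside the results. The 8 dendritic cell markers, of which 4 were tested, summed to 3.26 to 4.37 CPM in untreated cells, 9.16 to 10.1 CPM with IL-4, 4.58 to 9.04 CPM in the difference and 11.7 to 26.1 CPM in the remainder. All 4 tested dendritic cell markers passed the test in the remainder, with *Zbtb46*, *Ccr7* and *Batf3* higher and *Cd209a* lower. *Flt3*, *Clec9a* and *Xcr1* had at most 11 counts in any library and *Zbtb46* 4 to 28. Larger counts came from *Ccr7*, with 2 to 6 counts in untreated cells, 31 to 113 in the difference and 110 to 319 in the remainder, and from *Batf3*, with 23 to 31, 14 to 20 and 42 to 76 counts and 89 to 115 with IL-4. *Cd209a* went the other way, from 11 to 24 counts in untreated cells to 0 in the difference and 0 to 3 in the remainder. The filter on low counts asks for 10 counts. *Ccr7* lay under that in untreated cells and *Cd209a* in both Wnt3a-treated parts, so their tests are not independent of the filter. Of the 7 T-cell markers, *Lck* (5 to 20 counts) and *Cd5* (12 to 43 counts) were tested. *Lck* was higher in both Wnt3a-treated parts (1.39, adjusted p = 0.00473, and 1.72, adjusted p = 0.000688) and *Cd5* in the remainder (1.25, adjusted p = 0.00472), while *Cd3d*, *Cd3e*, *Cd3g* and *Trbc2* had at most 1 count in any library. *Lck* and *Zbtb46* had libraries on both sides of 10 counts, so their tests may not be independent of the filter either. The 8 neutrophil markers summed to 48.9 to 61.2 CPM in untreated cells, 64.7 to 75.2 CPM with IL-4, 35.7 to 56.5 CPM in the difference and 32.0 to 36.3 CPM in the remainder. Of the 6 tested, *Ngp* was lower in the difference, and *S100a9*, *Camp*, *Ltf* and *Ngp* were lower in the remainder. The part of such cells in the changes of the members was not tested.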

How the data were processed

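Single-read RNA-seq of 12 BMDM samples was used. To make the deposited counts (raw reads per gene), the authors trimmed, aligned to mm10 and counted the reads, and the submitters' processing notes name FastQC 0.11.7, Trimmomatic 0.36, STAR 2.6.0, SAMtools 1.9, HTSeq 0.11.1 and DESeq2 1.24.0. The strand setting of the counting is not given in the sources used here. 48058 of 48526 identifiers (99.0%) were paired with a symbol, 0 rows named no gene and 0 sample columns were left unused. Reads that a mouse's columns for Wnt3a and Wnt3a+IL-4 share were separated by subtraction into the difference and the remainder, which replace these columns.

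The 12421 genes with 10 or more counts in 3 or more libraries were fitted across all 4 groups without covariates by edgeR 4.0.16 (quasi-likelihood, TMM, two-sided, Benjamini-Hochberg over all tested genes) in R 4.3.3, checked first on simulated counts. SEs are the unshrunk log2 fold change over the square root of F. CPM for correlations had a prior count of 2. Counts carry at least their counting error, which limits *Pdcd1lg2* most. DESeq2 1.42.0, other scalings, filters, thresholds, thinned counts, a block for the mouse and leaving out each mouse and library were alternatives, 26 in all. The labels tie the 4 samples of a number to 1 mouse. The deviations of same-mouse libraries correlated with r of -0.417 to 0.454, over 0.1 in 6 of 18 pairs. The block lost no call of a member, and gained none against untreated cells or between the Wnt3a-treated parts. All 10 members are named. For each member that changed, the 3 genes most like it are named. Of the related lists, genes that passed a test against untreated cells or between the Wnt3a-treated parts are named. Members and lists were chosen with earlier results of these data known. Promoters are from RefSeq and positions from the annotation of mm10.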

Additional observations from a re-analysis of the deposited data

Results flagged for a closer look

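4 members were singled out because the effect of IL-4 with Wnt3a differed from its effect without Wnt3a by edgeR's test of the interaction (adjusted p = 0.000352, 1.63e-05, 0.0156 and 0.000997 in the order given here), with the difference taken as Wnt3a+IL-4. Of all genes, 7.33% passed under this assignment. The interaction was -1.25 for *Cd274*, -6.21 for *Pdcd1lg2*, -0.91 for *Cd40* and 1.09 for *Icosl* on the log2 scale. The *Pdcd1lg2* value rests on 0 to 5 counts in untreated libraries and 6 to 7 in those of the difference. This gene passed the filter on low counts only through the IL-4 and remainder libraries, where it is high. Its test is not independent of that filter. With the remainder taken as Wnt3a+IL-4, the interaction was 0.07, 0.01, 0.83 and -0.10 in the same order. None of these passed, against 0.105% of all genes. With 3 samples per group, no search for single samples far from the others was made.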

How the results depend on the processing

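The block for the mouse left the number of changed members as it was, 3 with IL-4, 4 in the difference, 8 in the remainder and 4 between remainder and difference. It lost no call of a member against IL-4 or in the interactions. Every member was followed against untreated cells and between the Wnt3a-treated parts. Against IL-4 only members called in the main fit were followed, and in the interactions only those that passed under either assignment. Calls gained there by other members are not counted here. Over all alternatives, 1507 log2 fold changes so followed kept direction and call, 73 lost the call, 16 gained one and 30 changed sign. The cause was not tested.

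Members that changed with IL-4 went from 3 to 1 at an adjusted p under 0.01, to 1 with a fold threshold (absolute log2 value 1 or more), and ranged from 0 (without mouse 3) to 3 when libraries or mice were left out. In the difference the 4 ranged from 3 to 6 when left out, and the Wnt3a columns as labelled gave 7. In this section the Wnt3a columns are set beside the difference and the Wnt3a+IL-4 columns beside the remainder. That order assigns neither part. In the remainder the 8 became 5 with the fold threshold (7 to 8). Between remainder and difference the 4 became 1 with the fold threshold, 0 with the columns and 2 without mouse 3 (2 to 4). Against IL-4, the 7 of the difference became 4 at 0.01 and 4 with the fold threshold, ranging from 4 (without mouse 3) to 7, and the 8 of the remainder became 5 with the fold threshold (7 to 9). For the interaction with the remainder as Wnt3a+IL-4, the 0 became 1 with all genes of at least 1 count and 1 with the columns (0 to 0). With the difference as Wnt3a+IL-4, the 4 became 2 without mouse 3 (2 to 4), a fit with no counterpart in the labelled columns.

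Total-count scaling gave *Cd40* -0.015 with IL-4 and *Cd80* -0.0304 in the remainder. The Wnt3a columns as labelled gave *Cd40* 0.24 and *Havcr2* 0.0129 against untreated cells and *Pdcd1lg2* 0.20 against IL-4. All columns as labelled gave interactions of -0.48 for *Cd274*, -2.68 for *Pdcd1lg2* (adjusted p = 0.0472 in edgeR) and 0.40 for *Icosl*. DESeq2 gave *Pdcd1lg2* an interaction of -0.0386. When mice or libraries were left out, the value with IL-4 ranged from -0.00472 to 0.063 for *Cd40*, -0.0227 to 0.17 for *Vsir* and -0.0788 to 0.20 for *Havcr2*. *Cd80* in the remainder ranged from -0.0297 to 0.15, and remainder against difference from -0.29 to 0.0133 for *Cd86* and from -0.0519 to 0.27 for *Lgals9*. The interactions with the remainder as Wnt3a+IL-4 ranged from -0.0591 to 0.22 for *Cd274*, -1.02 to 0.57 for *Pdcd1lg2* and -0.22 to 0.0169 for *Icosl*.

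Of all genes, 422 changed with IL-4, 812 with all genes of at least 1 count, 227 at 0.01, 133 with the fold threshold, 708 in the fit of the columns and 77 to 532 with leave-outs. The 2884 of the difference became 1687 and 842 with the thresholds (1220 to 3188), the 3137 of the remainder 1960 and 917 (1375 to 3807), the 2519 of difference against IL-4 1659 and 835 (1208 to 2805) and the 2521 of remainder against IL-4 1575 and 733 (1043 to 3052). The 652 between remainder and difference became 1454, 279 and 184, 429 with only these groups, 0 with the columns and 97 to 1188 with leave-outs. Among these leave-outs the lowest counts were without mouse 3. The 13 genes of the interaction with the remainder as Wnt3a+IL-4 became 165 in DESeq2, 575 with all genes of at least 1 count, 0 at 0.01, 142 with the columns and 0 to 43 with leave-outs. The 910 of the reverse became 1505 with all genes of at least 1 count, 472 at 0.01, 423 with the fold threshold and 265 to 1459 with leave-outs. Total-count scaling moved the median log2 fold change over all genes to -0.101 in the difference and -0.13 in the remainder. At 0 to 5 counts per untreated library, depth limits *Pdcd1lg2*.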

Other observations

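Of 13 genes for T-cell receptors of these and related ligands, 3 passed the filter. *Cd28*, the receptor of CD80 and CD86 on T cells, had 1279 to 2164 counts in untreated macrophages, or 116, 82.3 and 109 CPM. With IL-4 it was at 125, 125 and 121 CPM, in the difference at 84.8, 77.9 and 90.4 CPM, and in the remainder at up to 81.0 CPM, from 805 counts in mouse 1, 1318 in mouse 2 and 994 in mouse 3. It was lower in the remainder than in untreated cells (-0.65, adjusted p = 0.00553 in edgeR), with all remainder libraries below all untreated ones. In the same libraries the T-cell markers *Cd3d*, *Cd3e* and *Cd3g* had 0 or 1 count, *Lck* 5 to 20 and *Cd5* 12 to 43, and the last 2 were higher in the remainder, where *Cd28* was lower. No other gene overlaps the exons of *Cd28* in the annotation.

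*Tnfrsf9* (4-1BB), the receptor of the product of *Tnfsf9*, had at most 1 count in the untreated and IL-4 libraries. The difference had 12, 6 and 2 counts and the remainder 23, 10 and 6. It passed the filter on low counts only through the groups where it is high. With at most 1 count in each library of the other groups, neither a test nor a fold is given.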
